A study of Mus musculus with 4 samples.

Results

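The Cyp4 fatty acid omega-hydroxylases are cytochrome P450 enzymes, and 9 of the 19752 genes named on the array are described here: Cyp4a10, Cyp4a14, Cyp4a12a, Cyp4a12b, Cyp4a31, Cyp4a32, Cyp4f14, Cyp4f15 and Cyp4v3. Every probe whose transcript accession belongs to 1 of these genes was taken, which gave 13 probes of 55681, and all 13 were well above background on 4 of 4 arrays in both genotypes. The family was chosen by differences already seen on these same arrays, so the values of its members are a description, and their calls support nothing. The tissue was liver of Rap1 -/- mice and of wild-type mice, both on a C57BL6/129SV background (90% and 10%) and 30 weeks old by the labels. The study describes the mice of this comparison as females of a somewhat greater age, and the knockout is a whole-body one, made with a Cre driven by the EIIa promoter that was later bred out. RAP1 is best known for its place at chromosome ends, and the comparison asks how liver gene expression differs when it is missing at the onset of obesity. Each of 4 two-colour Agilent arrays carried liver RNA of each genotype, with 3 replicates that the labels call biological. In replicates 1, 2 and 3 the Rap1-deficient RNA was labelled with Cy5 and the wild-type RNA with Cy3. A dye-swapped array had the dyes the other way round. The labels number it 1, and it was therefore paired with replicate 1.

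Omega-hydroxylation places a hydroxyl group on the methyl end of a fatty acid, after which alcohol and aldehyde dehydrogenases turn that end into a second carboxyl group and the dicarboxylic acid is shortened in peroxisomes. In mouse liver the pathway takes up fatty acids when mitochondrial oxidation is overloaded, and Cyp4a10 and Cyp4a14 are textbook targets of PPARα, the nuclear receptor that senses fatty acids during fasting. Cyp4a12a and its close copy Cyp4a12b are male-biased, and Cyp4a12a also makes 20-hydroxyeicosatetraenoic acid from arachidonic acid. Cyp4f14 and Cyp4f15 belong to a subfamily known for hydroxylating leukotriene B4, and Cyp4v3 is the mouse counterpart of the human enzyme that is defective in Bietti crystalline dystrophy of the retina.

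In the RefSeq order of genes on the assembly GRCm38.p6, the Cyp4a members lie in 1 cluster on chromosome 4, with Cyp4a14, Cyp4a10, Cyp4a31 and Cyp4a32 next to each other among protein-coding Cyp genes, and Cyp4f15 and Cyp4f14 lie in another on chromosome 17. Promoters of 4 of the 9 members were found in the RefSeq table used. The 250 bases before the start site are shown for Cyp4f14, the member that was below wild-type on every array, for Cyp4f15 of the same cluster, which stayed close to wild-type, and for Cyp4a32 from the variable Cyp4a cluster. Of the 4 start sites of Cyp4f14, the one shown was picked because its CCAAT box lies closest to that of Cyp4f15. Capitals mark the CCAAT box, which reads ATTGG on the strand printed:
Cyp4f14 promoter (GRCm38.p6, chr17:32917330-32917579, minus strand): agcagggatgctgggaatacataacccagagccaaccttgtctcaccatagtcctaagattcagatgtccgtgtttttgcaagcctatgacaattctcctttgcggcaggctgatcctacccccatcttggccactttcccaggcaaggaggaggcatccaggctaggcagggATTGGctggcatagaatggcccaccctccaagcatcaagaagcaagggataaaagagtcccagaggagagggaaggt
Cyp4f15 promoter (GRCm38.p6, chr17:32685409-32685658, plus strand): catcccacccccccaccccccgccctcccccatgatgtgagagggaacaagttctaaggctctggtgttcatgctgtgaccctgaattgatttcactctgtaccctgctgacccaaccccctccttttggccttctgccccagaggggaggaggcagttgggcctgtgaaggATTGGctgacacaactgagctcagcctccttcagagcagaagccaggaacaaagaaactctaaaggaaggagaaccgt
Cyp4a32 promoter (GRCm38.p6, chr4:115600688-115600937, plus strand): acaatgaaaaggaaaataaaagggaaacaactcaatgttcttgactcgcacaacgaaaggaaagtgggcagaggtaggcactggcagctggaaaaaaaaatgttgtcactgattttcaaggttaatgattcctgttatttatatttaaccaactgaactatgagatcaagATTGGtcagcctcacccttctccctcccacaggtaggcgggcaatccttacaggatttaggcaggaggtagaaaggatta

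The CCAAT box began at -77 in Cyp4f14, at -78 in Cyp4f15 and at -80 in Cyp4a32, counted from the start site on the gene's strand. Before the other 3 start sites of Cyp4f14 it began at -64, -50 and -24, the last on the opposite strand, and the window of Cyp4v3 had none. Of all windows, 33.8% (n = 32851, of the same length) hold CCAAT on either strand. The longest stretch that the windows of Cyp4f15 and Cyp4f14 shared was 10 bases. AGGTCA, the core hexamer bound by nuclear receptors such as PPARα, is held by 14.0% of all windows and was not in the windows of these 4 members on either strand, and neither was its direct repeat with a spacing of 1 base, held by 0.0335% of windows. The STAT motif TTCNNNGAA, held by 7.02% of windows, was not among them either. These letters were searched only in this stretch, and nothing about the factors follows from them.

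All 4 arrays were on 1 slide with 1 scan time, no spot was saturated, and each channel had 50.1% to 56.4% of its spots well above background. On the log2 scale, ratios of the dye-swapped array, turned so that Rap1-deficient stands over wild-type, correlated with those of replicates 1, 2 and 3 at -0.24, -0.29 and -0.27 over the tested probes, while those 3 arrays correlated with each other at 0.64 to 0.85. The sign of every value below follows the dyes that the labels give. The probe A_52_P381806 for Terf2ip, the gene that encodes RAP1, cleared the background in Rap1-deficient livers on 0 of 4 arrays and in wild-type livers on 4 of 4, which makes it at least 3.33-fold lower in the Rap1-deficient ones (limma, adjusted p = 0.00859). This probe had log2 ratios of -1.74, -1.92, -1.91 and, on the swap, -1.68, below 0 in both dye orientations as the labels give them. The second Terf2ip probe, A_55_P2094079, had a log2 ratio of 1.17, 1.07, 0.88 and, on the swap, 0.72, above 0 in both. With the dyes of the swap exchanged, each probe would have had opposite signs in the different orientations. For the deleted gene, the labelled dyes of the swap therefore go with those of the other arrays. Where either probe lies relative to the deletion is not stated in the sources used here. Across all 27513 tested probes, limma called 9488 (34.5%) at a false discovery rate (FDR) under 0.15, 5717 higher (20.8%) and 3771 lower (13.7%) in Rap1-deficient livers. The split moved with the scaling, to 5676 higher and 796 lower with median centring and to 4540 higher and 5482 lower in the authors' value table.

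Among the 13 Cyp4 probes, 3 were called higher, 1 was called lower and 9 were not called, and 2 had the same direction on all 4 arrays, against 21.5% of all tested probes with the same direction and 34.5% called. Cyp4f14 was below wild-type on every array, the PPARα-responsive Cyp4a genes were far above wild-type in replicate 1 and at or below it in replicates 2 and 3 by several of their probes, and Cyp4a12a, Cyp4a12b, Cyp4f15 and Cyp4v3 stayed within 0.48 of wild-type on every array on the log2 scale. The rule took every probe, so no member lies just inside or outside a threshold.

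**Figure D1:**
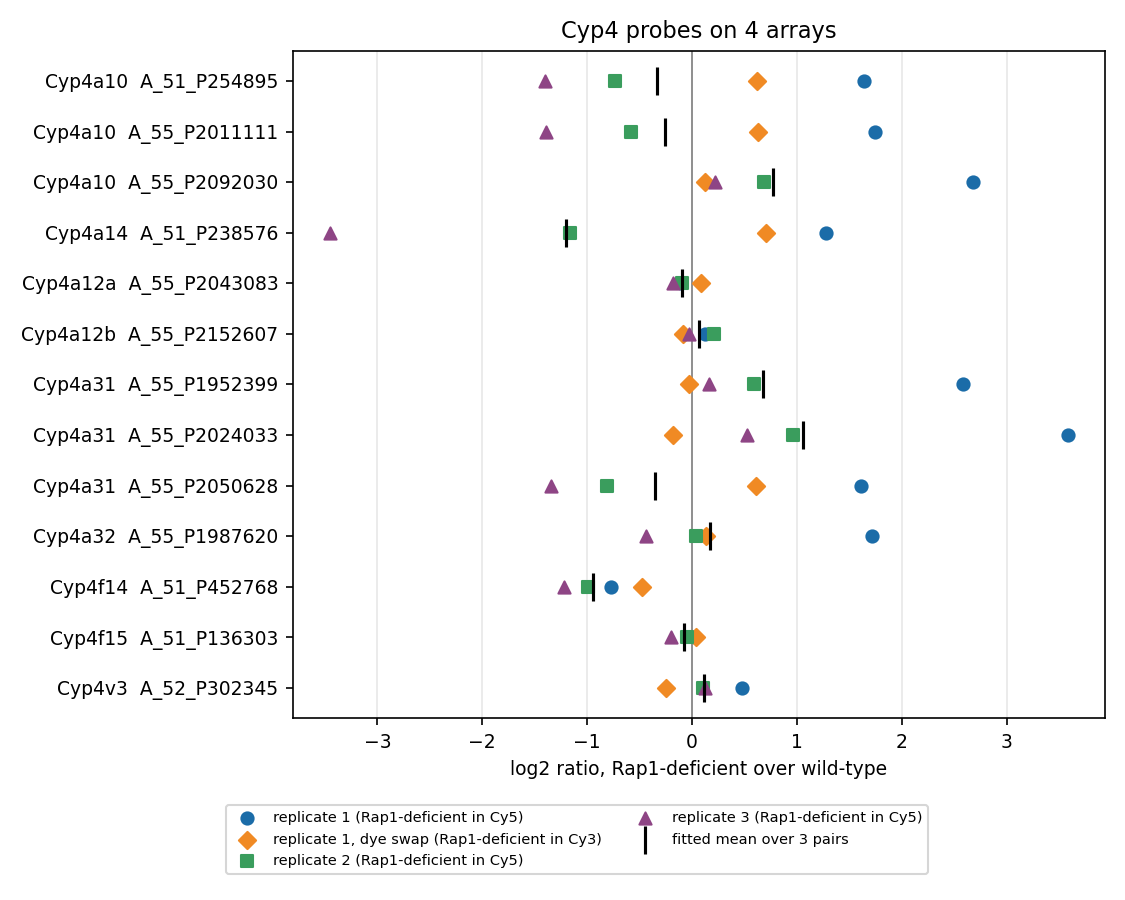
Log2 ratio of Rap1-deficient over wild-type liver (x axis) for the 13 Cyp4 probes (rows), 1 symbol per array, with a black bar at the mean over 3 pairs fitted by limma. Cyp4f14 lies left of 0 on 4 of 4 arrays, whereas Cyp4a14 spans -3.45 to 1.28.

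Cyp4a14, a PPARα-induced fatty acid hydroxylase, was the most variable member. Its log2 level in Rap1-deficient livers was 16.86 in replicate 1, 16.40 on the dye-swapped array, 14.87 in replicate 2 and 12.69 in replicate 3. In wild-type livers it was 15.58, 15.69, 16.03 and 16.14 in the same order. The 2 arrays of replicate 1 were above all wild-type values and the livers of replicates 2 and 3 below all of them, so that the wild-type livers lay inside the range of the Rap1-deficient ones. The log2 ratios were 1.28, -1.16 and -3.45 in replicates 1, 2 and 3 and 0.71 on the swap. The fitted log2 difference was -1.21 ± 0.78 (SE, n = 3 pairs) and was not called. Leaving out replicate 1 gave -2.31, which passed the threshold, and leaving out replicate 3 gave -0.08, which did not.

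Cyp4a10, the other classical PPARα-induced omega-hydroxylase of the cluster, had 3 probes. By A_51_P254895, its log2 level in Rap1-deficient livers was 14.28 in replicate 1, 13.34 on the swap, 11.96 in replicate 2 and 11.24 in replicate 3. In wild-type livers the same probe gave 12.64, 12.72, 12.69 and 12.64. Both arrays of replicate 1 were above every wild-type liver and both other livers below, as with Cyp4a14. The log2 ratios were 1.64, -0.73, -1.40 and 0.62 on the swap, with a fitted difference of -0.33 ± 0.46 (SE, n = 3 pairs), not called. The second probe, A_55_P2011111, gave nearly the same ratios: 1.75, -0.58, -1.39 and 0.63 on the swap. Without replicate 1 these probes had fitted differences of -1.07 and -0.99, and both passed the threshold as lower. Without replicate 3 they were 0.20 and 0.31, and neither passed.

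The third Cyp4a10 probe, A_55_P2092030, went another way. Its log2 ratios were 2.68, 0.69, 0.22 and 0.12 on the swap, all above 0, and it was called higher at 0.77 ± 0.22 (SE, n = 3 pairs). Without replicate 1 the difference was 0.45 and still passed, and without replicate 2 it was 0.81 and did not. In Rap1-deficient livers its log2 level was 12.92, 11.63 on the swap, 10.53 and 9.93, in the order replicate 1, swap, replicate 2 and replicate 3, which is the same ranking of livers as by the other probes. In wild-type livers it was 10.24, 11.51, 9.84 and 9.72 in that order. The wild-type liver on the swap, the 1 labelled with Cy5, stood apart from the 3 labelled with Cy3. The difference of this probe from A_51_P254895 in the log2 ratio was 1.04, 1.42 and 1.62 in replicates 1, 2 and 3 and -0.50 on the swap. Read as Cy5 over Cy3, without turning the swap, the difference was positive on every array, with 0.50 on the swap. The part of the dye in this disagreement was not tested.

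Cyp4a31, a close copy of Cyp4a10, showed the same split between its own probes. A_55_P2050628 had log2 ratios of 1.61, -0.81, -1.35 and 0.61 on the swap, within 0.08 of those of A_51_P254895 for Cyp4a10 on each array. A_55_P1952399 had 2.58, 0.60, 0.16 and -0.02, and A_55_P2024033 had 3.58, 0.97, 0.52 and -0.18. These 2 were called higher at 0.68 ± 0.21 and 1.06 ± 0.22 (SE, n = 3 pairs), and A_55_P2050628 was not called at -0.35 ± 0.46. Without replicate 1 the called probes had 0.38 and 0.74, both past the threshold, and without replicate 2 they had 0.72 and 1.11, neither past it. Without replicate 1, A_55_P2050628 had -1.08 and passed as lower. The difference of A_55_P2024033 from A_55_P2050628 was 1.97, 1.78 and 1.87 in replicates 1, 2 and 3 and -0.80 on the swap. With a dye term in the fit, none of the 3 higher calls of Cyp4a10 and Cyp4a31 passed, at 0.66, 0.54 and 0.75. Cyp4a32, the last of the 4 neighbours, had 1 probe with log2 ratios of 1.72, 0.03, -0.44 and 0.14 on the swap. It was not called at 0.17 ± 0.26, and its fitted difference without replicate 1 was -0.20. Transcripts of Cyp4a10, Cyp4a31 and Cyp4a32 are nearly identical and the probe sequences were not used here, so which of these transcripts a probe measured is uncertain.

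**Figure D2:**
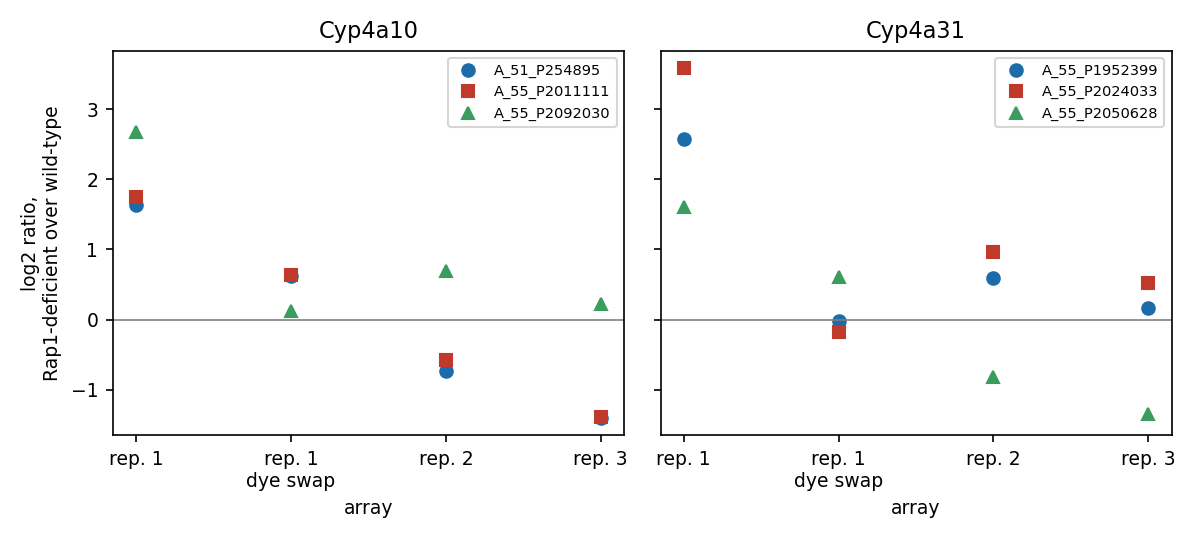
Log2 ratio of Rap1-deficient over wild-type liver (y axis) on each of 4 arrays (x axis) for the 3 probes of Cyp4a10 and the 3 of Cyp4a31. A_55_P2092030 of Cyp4a10 lies above the other 2 probes in replicates 1, 2 and 3 and below them on the dye-swapped array, and A_55_P1952399 and A_55_P2024033 of Cyp4a31 do so against A_55_P2050628.

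Replicate 1 was the only pair measured in both dye orientations. Averaged over its 2 arrays, every probe of the 4 neighbouring Cyp4a genes was higher in the Rap1-deficient liver, with log2 ratios of 1.13, 1.19 and 1.40 for Cyp4a10, 0.99 for Cyp4a14, 1.28, 1.70 and 1.11 for Cyp4a31 and 0.93 for Cyp4a32. Of these, A_55_P1952399 and A_55_P2024033 of Cyp4a31 were below 0 on the swap itself.

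The spread of these genes was larger in the Rap1-deficient livers. Over the 3 arrays of 1 dye orientation, the 8 probes of Cyp4a10, Cyp4a14, Cyp4a31 and Cyp4a32 had an SD of the log2 level between 1.44 and 2.09 in Rap1-deficient livers, and between 0.03 and 0.30 in wild-type livers. For Cyp4a14 the highest Rap1-deficient liver was 18.0-fold above the lowest, and the highest wild-type liver 1.48-fold above the lowest. For A_51_P254895 of Cyp4a10 these were 8.26-fold in Rap1-deficient livers and 1.03-fold in wild-type livers. Over all tested probes the median SD was 0.14 in Rap1-deficient and 0.06 in wild-type livers, and 80.4% of probes varied more in Rap1-deficient livers. An SD over 1 was reached by 202 probes in Rap1-deficient livers and by 10 in wild-type livers. The SD of Cyp4a14 in Rap1-deficient livers was above that of 99.97% of tested probes, and that of A_51_P254895 above 99.86%, with n = 3 livers each. In wild-type livers these were 98.7% and 13.34%. There the SDs of Cyp4a32, A_55_P2092030 and A_55_P1952399 were also above 98.79%, 98.32% and 97.92% of tested probes. Those of A_55_P2011111, A_55_P2050628 and A_55_P2024033 were above 25.82%, 21.16% and 76.24%. These SDs were computed after the ratios had been seen, and the genotypes also differ in dye on these arrays. The labels call the replicates biological and do not otherwise say that the wild-type samples are separate animals. The wild-type SD may therefore not be a spread between animals, which was not tested. In bulk liver, fewer cells that express a gene and less RNA per cell cannot be told apart.

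**Figure D3:**
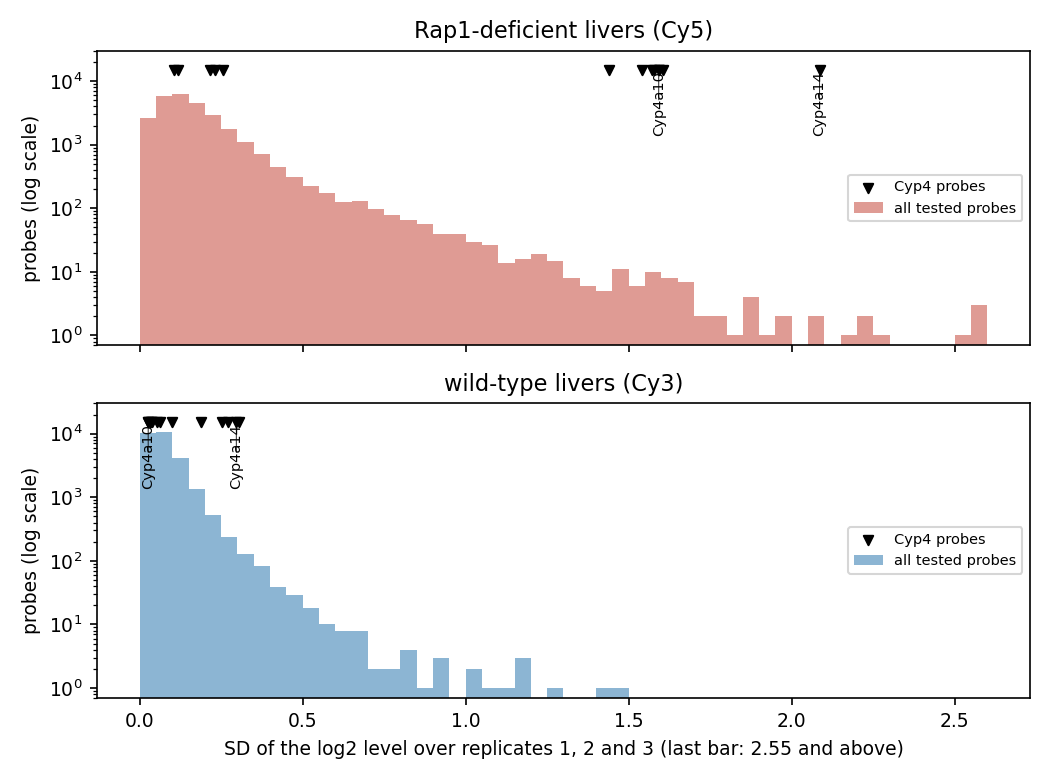
Number of tested probes (y axis, log scale) by the SD of their log2 level over replicates 1, 2 and 3 (x axis), for Rap1-deficient livers (top) and wild-type livers (bottom), with triangles for the 13 Cyp4 probes. In Rap1-deficient livers 8 triangles lie at 1.44 or above, and in wild-type livers all lie at 0.30 or below.

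Cyp4f14 was lower in the Rap1-deficient liver on 4 of 4 arrays. Its log2 level in Rap1-deficient livers was 13.55 in replicate 1, 13.50 on the swap, 13.28 in replicate 2 and 13.09 in replicate 3. In wild-type livers it was 14.32, 13.97, 14.27 and 14.31. The highest Rap1-deficient value was below the lowest wild-type value. The level averaged 13.30 ± 0.22 in Rap1-deficient livers and 14.24 ± 0.08 in wild-type livers (SD, n = 3 each, with both arrays of replicate 1 averaged). The log2 ratios were -0.77, -0.99, -1.22 and, on the swap, -0.47, and the fitted difference was -0.94 ± 0.13 (SE, n = 3 pairs), called lower, against a background of 13.7% of probes called lower. The difference was below 0 under all 12 alternatives, from -1.10 to -0.73, and it was called under 10 of them. It did not pass without replicate 2, at -0.92, or with the swap as a replicate of its own, at -0.86.

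**Figure D4:**
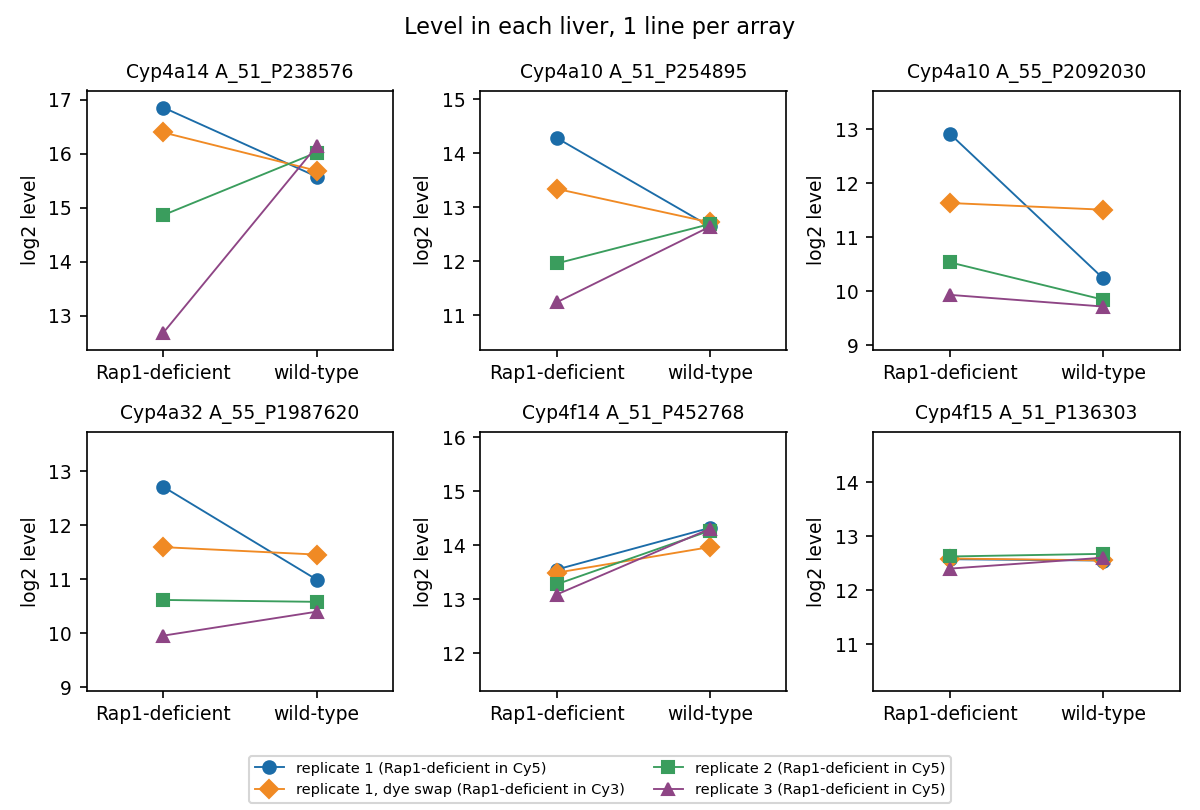
Log2 level (y axis, with the same length of scale in each panel) in Rap1-deficient livers (left) and wild-type livers (right) for 6 Cyp4 probes, with a line joining the 2 livers of an array. The 4 lines of Cyp4f14 all end higher in wild-type, those of Cyp4a14 and A_51_P254895 of Cyp4a10 cross, and those of Cyp4f15 are nearly flat.

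The remaining members differed little. Cyp4f15, which lies in the same cluster as Cyp4f14 with other genes between them, had log2 ratios of 0.02, -0.05, -0.20 and 0.03 on the swap, and a log2 level of 12.54 ± 0.12 in Rap1-deficient and 12.61 ± 0.06 in wild-type livers (SD, n = 3 each). Cyp4v3 had log2 ratios of 0.48, 0.10, 0.13 and -0.24 on the swap, with a level of 12.98 ± 0.11 in Rap1-deficient and 12.87 ± 0.11 in wild-type livers. The male-biased Cyp4a12a had a log2 level of 6.97 ± 0.15 in Rap1-deficient and 7.06 ± 0.07 in wild-type livers, and Cyp4a12b one of 6.70 ± 0.10 in Rap1-deficient and 6.63 ± 0.06 in wild-type livers. The fitted log2 differences of these 4 genes lay between -0.09 and 0.12, with standard errors of 0.08 to 0.09 (n = 3 pairs), and none was called. The groups overlapped for each of them. The Cyp4a12a and Cyp4a12b probes cleared the background but lay near it. The Terf2ip probe A_52_P381806, which did not clear it in Rap1-deficient livers, averaged 6.05 there. A difference in Cyp4a12a or Cyp4a12b could therefore be missed. For Cyp4a12b it was 0.010 with no background correction and 0.24 from Agilent's processed signals.

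The other Cyp4 genes were taken from a list of 11, of which 7 were tested and Cyp4x1, Cyp4f37, Cyp4a29 and Cyp4a30b were not. Of the 7, 3 passed as higher, none as lower and 4 did not pass, against 20.8% of all tested probes called higher and 13.7% lower, with a median log2 difference of 0.23, against 0.03 over all tested probes. Cyp4f16 had log2 ratios of 0.38, 0.43, 0.68 and, on the swap, -0.03, with a difference of 0.43 ± 0.12 (adjusted p = 0.0750). Cyp4f17, at 0.31, and Cyp4f13, which lies next to Cyp4f14, at 0.23, were the other two, with adjusted p = 0.110 and 0.144, and both had a negative ratio on the swap. Cyp4f18, an enzyme of myeloid cells, had -0.26, 0.06, 0.93 and 0.06 and did not pass. No call of this list passed without replicate 2, without replicate 3 or with the dye term, where 0, 0 and 1 of the 7 had an unadjusted p under 0.05 in limma.

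Of 24 genes that feed or follow omega-hydroxylation (electron donor, alcohol and aldehyde dehydrogenases, acyl-CoA synthetases and peroxisomal enzymes), 9 passed as higher, 2 as lower and 13 did not pass, against 34.5% of all tested probes called in either direction. The median log2 difference was 0.15. Aldh3a2, the fatty aldehyde dehydrogenase that follows omega-hydroxylation, had log2 ratios of 3.30, 2.64 and 2.23 in replicates 1, 2 and 3 and -0.57 on the swap. Its fitted difference was 2.08 ± 0.24 (SE, n = 3 pairs, adjusted p = 0.0402), and its direction differed between the dye orientations. Slc27a2, a very-long-chain acyl-CoA synthetase and fatty acid transporter, had 1.76, 0.99, 1.19 and 0.03, with a difference of 1.03 ± 0.10 (adjusted p = 0.0329). Among peroxisomal genes, the thiolase gene Acaa1b was 0.51 higher and Hsd17b4, which encodes a multifunctional enzyme of beta-oxidation, 0.41 higher, both with ratios above 0 on 4 of 4 arrays. Ehhadh, the bifunctional enzyme of dicarboxylic acid oxidation, was 0.43 higher (adjusted p = 0.0933), with -0.26 on the swap. Adh4, an alcohol dehydrogenase, fell by 0.87 (adjusted p = 0.0606), and Por, the electron donor of microsomal P450 enzymes, fell by 0.31 (adjusted p = 0.123), both below 0 on 4 of 4 arrays. Por passed under 5 of 12 alternatives and was -0.19 without replicate 1 and -0.13 with median centring, neither of them past the threshold. With the dye term 2 of the 24 passed, and 0 without replicate 2, where 8 had an unadjusted p under 0.05 in limma.

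Of 34 PPARα target genes outside the family 33 were tested, and 15 passed as higher, 1 as lower and 17 did not pass, against 20.8% of all tested probes called higher and 13.7% lower, with a median log2 difference of 0.17. On all 4 arrays 12 of the 33 were higher and 0 lower. Of all tested probes 10.6% were higher on all 4, and 2988 of 27513 were lower on all 4. Cd36, a fatty acid translocase, had log2 ratios of 3.70, 3.03, 2.93 and 1.15 on the swap, and a difference of 2.80 ± 0.14 (SE, n = 3 pairs, adjusted p = 0.00859). G0s2, an inhibitor of adipose triglyceride lipase, was 0.79 higher and above 0 on 4 of 4 arrays. Slc25a20, the carnitine-acylcarnitine carrier, was 0.78 higher (adjusted p = 0.0402) and Cpt1a, which starts mitochondrial fatty acid import, 0.42 higher (adjusted p = 0.0562), both with a ratio below 0 on the swap. Per array, the list's median ratio was 0.73 in replicate 1, 0.11 in replicate 2, 0.07 in replicate 3 and 0.22 on the swap, so that it was highest in the pair in which Cyp4a10 and Cyp4a14 were highest. Without replicate 1, 11 of the list were called higher and 10 lower.

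**Figure D5:**
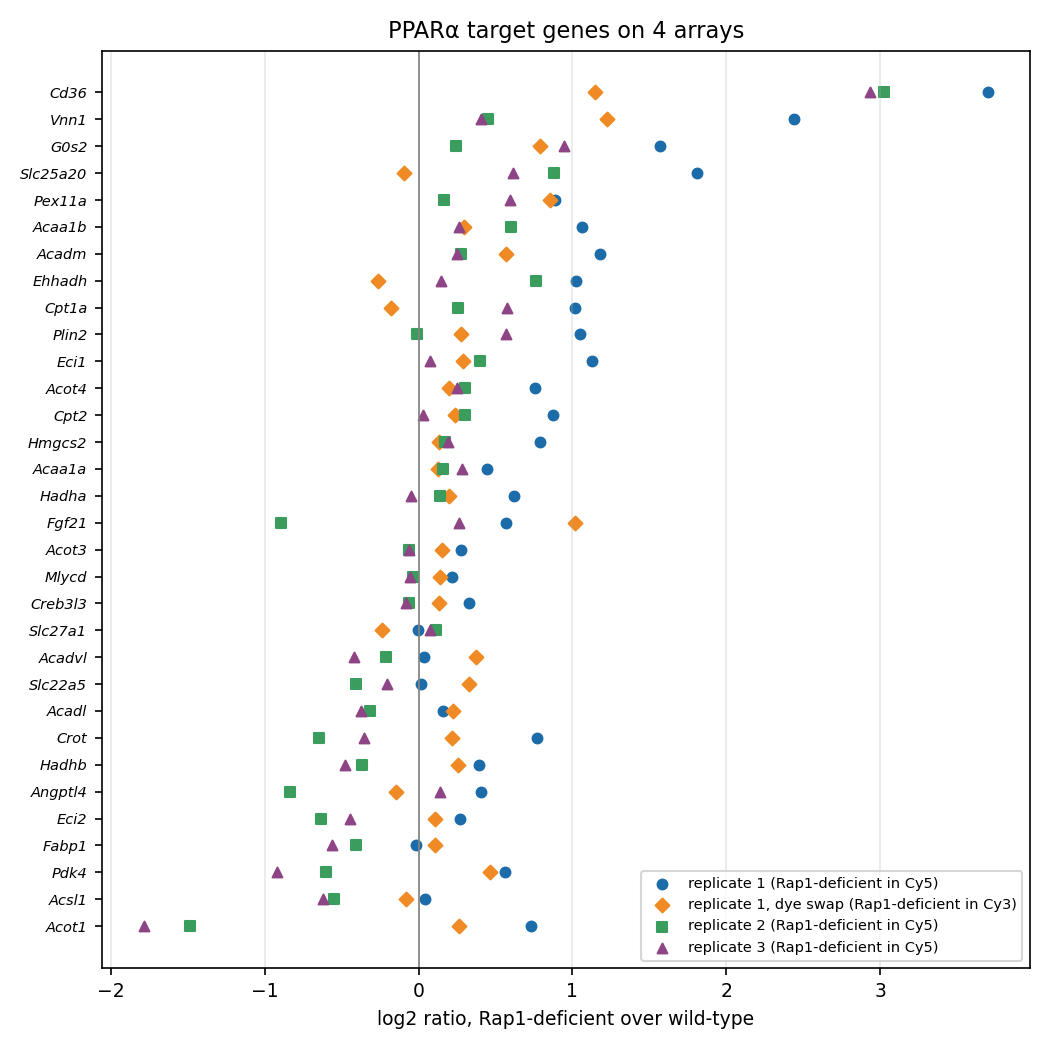
Log2 ratio of Rap1-deficient over wild-type liver (x axis) for PPARα target genes outside the Cyp4 family (rows, ordered by the fitted difference), 1 symbol per array. Cd36 lies above 1 on 4 of 4 arrays, and Acot1, in the lowest row, lies right of 0 on both arrays of replicate 1 and left of -1 in replicates 2 and 3.

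The order of livers seen in Cyp4a10 and Cyp4a14, above wild-type on both arrays of replicate 1 and below it in replicates 2 and 3, was counted after their values had been seen. It held for 5 of the 13 Cyp4 probes, among them the Cyp4a10 and Cyp4a14 probes that defined it, so this count supports nothing. Of the 5, several are for near-identical genes and 1, for Cyp4f15, had ratios of 0.20 or less in size. The order held for 11 of the 33 PPARα targets, against 1105 of 27513 tested probes (4.02%). It held for 3 of the 24 genes around omega-hydroxylation, 1 of 19 regulators and 0 of the 7 other Cyp4 genes. Cyp4a10 and Cyp4a14, which defined the order, are PPARα targets themselves. The lists were also chosen with earlier results of these data known, so these counts are a description only. The genes whose ratios over 4 arrays lay nearest to Cyp4a14 by Euclidean distance were Acot1, a cytosolic acyl-CoA thioesterase, at 1.84, Slc22a7, an organic anion transporter, at 2.29, and Derl3 at 2.67. Acot1 had 0.73, -1.48, -1.78 and 0.26 on the swap. Its log2 level was 13.34, 12.80 on the swap, 11.18 and 10.86 in Rap1-deficient livers, against 12.61, 12.54, 12.66 and 12.64 in wild-type livers, so that its wild-type values also lay inside the Rap1-deficient range. Nearest to Cyp4a10 (A_55_P2011111) were Gm4952 at 1.12, Hbb-b2, a globin of red cells, at 1.17 and Clpx, of a mitochondrial protease, at 1.24. Near to Cyp4f14 were Pdilt at 0.20 and Smad9 at 0.23, both called lower.

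Of 19 regulators, 5 passed as higher, 4 as lower and 10 did not pass, against 34.5% of all tested probes called, with a median log2 difference of 0.01. Ppara itself had log2 ratios of 0.99, 0.94, 0.90 and 0.15 on the swap, and a difference of 0.80 ± 0.11 (SE, n = 3 pairs, adjusted p = 0.0402). The Ppara ratio was nearly the same in replicates 1, 2 and 3, all in 1 dye orientation, and smaller on the swap. Cyp4a10 and Cyp4a14 differed most among those 3 arrays. The part of Ppara in the Cyp4a values was not tested. Ppargc1a, a coactivator of PPARα, had -0.02, 0.15, 0.23 and 0.06 and did not pass (adjusted p = 0.335). Med1, a mediator subunit, was 0.60 higher, with -0.19 on the swap, and the corepressor Ncor1 0.44 higher, with 0.00049 on the swap. The coactivator Ncoa2 fell by 0.51, the growth hormone receptor Ghr by 0.63 and Cux2, a female-biased repressor in liver, by 0.74, with adjusted p = 0.0426, 0.0470 and 0.0402. Cux2 and Ncoa2 were below 0 on 4 of 4 arrays, Ncoa2 at -0.05 on the swap, and Ghr was 0.07 on the swap.

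Markers of liver cells were measured beside these genes. All 6 hepatocyte markers passed the background filter and 1 was called higher, and of 6 Kupffer cell markers 1 was called lower. Of all tested probes 34.5% were called. The median log2 difference of the Kupffer cell markers was 0.37. Per array, their median ratio was -0.65, 0.07 and 1.26 in replicates 1, 2 and 3 and -0.36 on the swap, lowest in replicate 1. The summed Kupffer cell signal ran between 20292 and 63187 in Rap1-deficient livers, against 28263 to 29404 in wild-type livers. Of 4 adipocyte markers only Cfd passed the background filter, with log2 ratios of 2.35, 0.40, -1.12 and 2.28 on the swap and a signal of 58.3 to 572 in Rap1-deficient and 115 to 144 in wild-type livers, while Adipoq, Plin1 and Lep did not pass it. Cfd was highest in the pair in which Cyp4a10 and Cyp4a14 were highest. Of 4 erythroid markers 2 passed it and none was called. Their median log2 ratio was 0.85, -0.20, -0.03 and 0.64 on the swap, again highest in replicate 1, and their summed signal was 971 to 1767 in Rap1-deficient and 936 to 1013 in wild-type livers. Of 5 kidney tubule markers 2 passed it, with a summed signal of 536 to 602 in Rap1-deficient and 525 to 537 in wild-type livers, and neither was called, while Umod, Slc12a1 and Kap did not pass it. Of the tested markers, 2 of 6 endothelial, 0 of 6 stellate, 1 of 3 bile duct and 2 of 4 lymphocyte ones were called, against 34.5% of all tested probes. The part of these markers in the Cyp4 values was not tested.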

How the data were processed

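Liver RNA was compared on 4 two-colour arrays. The authors deposited spot intensities per scan, from Agilent Feature Extraction 10.7.3.1 by the headers, and a value table of log2 ratios that their processing notes credit to limma. The column of the dye-swapped array there has its sign turned already, as its values against the scan showed, and its column medians were -0.01, -0.02, -0.02 and 0.000826 (swap). How that table was background-corrected and normalized is not stated in the sources used here. The scans' own log10 ratios, background flags and processed intensities were also deposited by the authors. The median intensities were background-corrected (normexp, offset 50) and loess-normalized in limma 3.58.1 (R 4.3.3), control spots weighing 0. Spots with an outlier flag were left out, which removed 5 probes, and spots of a probe were averaged. The swap was turned and averaged with replicate 1. Testing required that 0.5 of a probe's spots or more cleared the background on all arrays of 1 genotype or of both, which kept 27513 probes (49.4%). Pairs were fitted with lmFit and eBayes and p-values adjusted across all tested probes by the Benjamini-Hochberg method, and an FDR under 0.15, the study's own threshold, was a call. Log2 levels are the 2 channels of the loess-normalized arrays, with mean intensities made equal in distribution between arrays. Levels of 1 probe are comparable between livers, not between probes. The bound for Terf2ip sets the mean of the wild-type channels against, on each array, the dimmest probe that cleared the background, or the probe's own where higher. Probes were named by accession through RefSeq (26056, 46.8%), and a gene in a list is represented by its brightest tested probe. The members and lists were chosen with earlier results of these data known. Named were every member probe, up to 6 genes of each list with the smallest p, 7 genes fixed by name, and the 3 genes nearest to Cyp4a10, Cyp4a14 and Cyp4f14. Some genes that this rule takes are not reported here. The labels do not say that the replicates are separate animals beyond calling them biological, and precision is limited by the number of arrays. The fit was tested on simulated data in which the swap equalled replicate 1 and no dye effect was present. That test cannot show how the fit behaves with the dye differences of these arrays. Alternatives were a dye term, the swap as its own replicate, leaving out the swapped array or each replicate with all its arrays, other scalings and signals, and other filters.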

Additional observations from a re-analysis of the deposited data

Results flagged for a closer look

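The ratio of Rap1-deficient over wild-type liver on the dye-swapped array pointed the other way from all 3 arrays of the opposite orientation for 4 Cyp4 probes. On the log2 scale, Cyp4a12a had 0.085 on the swap, against -0.10, -0.10 and -0.18 on the others. Cyp4v3 had -0.24, against 0.48, 0.10 and 0.13. For Cyp4a31, A_55_P1952399 had -0.024, against 2.58, 0.60 and 0.16, and A_55_P2024033 had -0.18, against 3.58, 0.97 and 0.52. With 1 array in 1 orientation the difference was not tested.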

How the results depend on the processing

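All alternatives were planned. The fit is already paired, since each array holds liver RNA of each genotype. No paired analysis was possible between the dye orientations because they share only replicate number 1, so no block on the replicate number was added. Of the 13 Cyp4 probes 4 were called, against 1 with a dye term, 0 with the swap as a replicate of its own (1 at an unadjusted p under 0.05 in limma) and 0 to 8 when each replicate was left out in turn. The 8 came without replicate 1 and the 0 without replicate 2 (3 at an unadjusted p under 0.05). The other settings gave 4 or 5. Of all probes 9488 were called, against 1844 with the dye term, 83 with the swap as its own replicate, 14496 without the swapped array and 7 (without replicate 2) to 12596 (without replicate 1) on leaving out a replicate, with 2735 without replicate 3. The genes around omega-hydroxylation had 11 calls, and 2 with the dye term, 0 with the swap as its own replicate (10 at an unadjusted p under 0.05) and 0 to 16 without a replicate. The PPARα targets had 16, and 2, 0 (12 at an unadjusted p under 0.05) and 1 to 21. The regulators had 9, and 3, 0 (7 at an unadjusted p under 0.05) and 0 to 10. The other Cyp4 genes had 3, and 0, 0 (1 each at an unadjusted p under 0.05), 0 to 3, and 1 from the authors' value table. Over all probes, the fits with the dye term and with the swap as its own replicate used every array and had fewer calls. Those without the swapped array or without replicate 1 used fewer arrays and had more calls. The cause of these changes was not tested.

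Directions reversed for log2 differences that were not called. With the dye term, A_51_P254895 and A_55_P2011111 of Cyp4a10 and A_55_P2050628 of Cyp4a31 had 0.23, 0.28 and 0.21, and Cyp4v3 had -0.0039. With the swap as its own replicate, those 3 probes had 0.032, 0.10 and 0.015. On leaving out a replicate they ran from -1.07 (without replicate 1) to 0.20 (without replicate 3), from -0.99 to 0.31 and from -1.08 to 0.15, and passed the threshold only without replicate 1. Cyp4a32 ran from -0.20 (without replicate 1) to 0.48, Cyp4a12b from -0.0055 (without replicate 2) to 0.12, and Cyp4f18 from -0.020 (without replicate 3) to 0.49. With median centring Cyp4a12a had 0.040, Cyp4f15 0.085 and Cyp4f40 0.041. Cyp4f15 had 0.047 from Agilent's processed signals, and Cyp4f40 had 0.040 without the swapped array and 0.14 with no background correction. No called Cyp4 difference reversed under these alternatives.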
